A study of Arabidopsis thaliana with 8 samples.

Results

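The 4 genes BGLU33, BGLU40, BGLU47 and PYK10 encode members of the plant beta-glucosidase family and were followed across 4 genotypes of Arabidopsis thaliana. They were chosen by name with earlier results of these data known, and the values that led to their choice are not recorded, so their levels and differences are given as a description. The fit across all probe sets includes them, and how many of them it calls is set beside the share of all probe sets called, with nothing read from it. They are 4 of the 13356 genes that had a probe set of their own in the array annotation, and 4 of the 22 such genes among 48 listed beta-glucosidase genes. Each had 1 probe set that lists that gene alone, for the loci AT2G32860 (BGLU33), AT1G26560 (BGLU40), AT4G21760 (BGLU47) and AT3G09260 (PYK10).

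Total RNA from dissected vegetative shoot apices with their leaf primordia was hybridised to Affymetrix ATH1 arrays, 1 array per sample. The groups were the double line rGRF3x35S:GIF1, which carries both transgenes, then rGRF3, then 35S:GIF1, and the wild type Col-0, with 2 arrays each, lettered A and B in every genotype. All lines were in the Col-0 background and were sampled at 20 days on soil at 23 °C with 8 h of light and 16 h of dark. GIF1 works as a partner of the GRF family of transcription factors and activates transcription with them. The 35S promoter is active in most tissues, so 35S:GIF1 is not limited to the cells that normally make GIF1. In published work rGRF3 is a GRF3 version that the microRNA miR396 cannot cleave. Whether a line is 1 transformant, and how many plants went into a sample, is not stated in the labels. Neither GIF1 nor GRF3 had a probe set of its own in the annotation, so the genotype labels were not checked on these genes.

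Beta-glucosidases of this family remove glucose from stored conjugates, which sets free the attached compound, as in the release of defence compounds from glucosinolates or of lignin precursors from their glucosides. PYK10 (also BGLU23) is the main protein of ER bodies, rod-shaped compartments of the endoplasmic reticulum that Arabidopsis and its relatives form in seedlings and roots. NAI1 is the bHLH transcription factor needed for PYK10 expression, NAI2 is an ER body component, and jacalin-related lectins (JAL proteins) bind PYK10 when cells are broken. BGLU47 is a close relative of BGLU45 and BGLU46, which act on the glucosides of lignin precursors.

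All values are log2 signals as deposited, where a step of 1 is a doubling. The array floor was 2.12 and the highest value 15.55, and 60.3% to 60.7% of probe sets per array had a log2 signal of at least 4. Levels are compared within a probe set only. Of 47 marker genes listed for cell types the apices could hold, 6 had their own probe set. The meristem marker CLV3 lay on the floor on all 8 arrays, and the root hair gene EXPA7 had 2.12 to 2.19. SPCH and TRY, regulators of stomatal precursors and trichomes found in young leaf primordia, had 7.50 to 8.18 and 5.01 to 6.11. With 2 arrays against 2, the smallest two-sided p of an exact permutation test is 0.33, so tests were run across all probe sets with limma, at an adjusted p under 0.05. The labels do not say that the arrays came from separate cultures, so the p-values refer to the spread of these arrays alone, and that spread may be technical.

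The comparisons of genotypes called few probe sets, and 0 of the 4 genes were among them. Among all 14005 tested probe sets, 0.00714% passed for the double line against Col-0, 0% for rGRF3 against Col-0 and 0.00714% for 35S:GIF1 against Col-0. The counts at an unadjusted p under 0.05 were 902, 479 and 198 in that order, 965, 546 and 278 in an ordinary linear model, and 2450, 1581 and 714 with the array letter as a block. Between the double line and rGRF3, 0.00714% passed, and between the double line and 35S:GIF1, 0%. For the interaction, which asks whether the double line differs from the sum of the single lines, 0% passed, and 123 reached an unadjusted p under 0.05, or 480 with the block. With the block the share called for the double line against Col-0 was 0.0357%, and 0 of the 4 genes were called.

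PYK10 had its lowest values in Col-0. Its log2 signal was 12.57 and 12.70 in the double line, 12.32 and 12.74 in rGRF3, 12.31 and 12.39 in 35S:GIF1, and 11.65 and 12.20 in Col-0, each on arrays A and B. Both arrays of every transgenic line lay above both Col-0 arrays, while the transgenic lines overlapped between neighbours in the order double line, rGRF3, 35S:GIF1. The means were 12.64 ± 0.09 in the double line, 12.53 ± 0.30 in rGRF3, 12.35 ± 0.06 in 35S:GIF1 and 11.92 ± 0.39 in Col-0 (SD, n = 2 each). The log2 difference from Col-0 was 0.71 in the double line (1.64-fold), 0.61 in rGRF3 (1.52-fold) and 0.43 in 35S:GIF1, each with a standard error of 0.23. All 3 share the Col-0 arrays, and the lower of these, array A, carries part of the size. Without Col-0 array A the difference of the double line was 0.44, and without Col-0 array B it was 0.99.

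The difference of PYK10 was positive in both letters for each line. The double line was above Col-0 by 0.92 on A and by 0.50 on B. In rGRF3 the same differences were 0.67 and 0.54, and in 35S:GIF1 they were 0.66 and 0.19. The double line also lay above 35S:GIF1 on both arrays, by 0.29 on average, and overlapped with rGRF3. The sum of the single-line differences was 1.03 and the double line's own was 0.71, which gives an interaction of -0.32 with a standard error of 0.33.

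BGLU33 ran in the opposite order. Its log2 signal was 6.29 and 6.85 in the double line, 7.14 and 7.10 in rGRF3, 7.34 and 7.25 in 35S:GIF1, and 7.70 and 7.39 in Col-0. No genotype overlapped with the next in the order double line, rGRF3, 35S:GIF1, Col-0 from low to high. How many of all probe sets are ordered without overlap was not counted. Its means were 6.57 ± 0.39 in the double line, 7.12 ± 0.03 in rGRF3, 7.29 ± 0.06 in 35S:GIF1 and 7.54 ± 0.22 in Col-0 (SD, n = 2 each). The log2 difference from Col-0 was -0.98 in the double line (1.97-fold lower), -0.42 in rGRF3 and -0.25 in 35S:GIF1, each with a standard error of 0.22.

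The size of the BGLU33 difference varied between the letters and its sign did not. Relative to Col-0 the double line was at -1.41 on array A and at -0.54 on array B. The corresponding values were -0.56 and -0.28 in rGRF3, and -0.36 and -0.14 in 35S:GIF1. Leaving out 1 array at a time moved the double line's difference between -1.26 and -0.70, the ends being without array B and without array A of the double line itself. The double line was also below each single line, with a difference of -0.56 from rGRF3 and of -0.72 from 35S:GIF1. The single-line differences summed to -0.67, and the interaction was -0.30 with a standard error of 0.31, so the double line was not separated from the sum of the single lines beyond this error.

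BGLU40 had its highest values in Col-0. Its log2 signal was 7.90 and 7.71 in the double line, 8.18 and 7.34 in rGRF3, 8.20 and 7.51 in 35S:GIF1, and 8.24 and 8.27 in Col-0. Every transgenic array lay below both Col-0 arrays, but the A arrays of rGRF3 and 35S:GIF1 did so by less than 0.1, as their within-letter differences of -0.06 and -0.04 show. On the B arrays the differences from Col-0 were -0.56 in the double line, -0.93 in rGRF3 and -0.77 in 35S:GIF1. The mean log2 differences from Col-0 were -0.45 in the double line, -0.50 in rGRF3 and -0.40 in 35S:GIF1, each with a standard error of 0.34. The transgenic genotypes overlapped with each other. The single-line differences summed to -0.90 against -0.45 in the double line (interaction 0.45, standard error 0.47).

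BGLU47 had values on both sides of the filter value of 4 and, of the 4 genes, the widest spread between the arrays of a genotype. Its log2 signal was 4.23 and 4.41 in the double line, 3.57 and 5.30 in rGRF3, 4.09 and 4.78 in 35S:GIF1, and 4.34 and 5.78 in Col-0. All genotypes overlapped. The means were 4.32 ± 0.13 in the double line, 4.44 ± 1.22 in rGRF3, 4.43 ± 0.48 in 35S:GIF1 and 5.06 ± 1.02 in Col-0 (SD, n = 2 each). The log2 differences from Col-0 of -0.74 in the double line, -0.62 in rGRF3 and -0.63 in 35S:GIF1 were close to their standard error of 0.68. Within letters they were -0.11 and -1.37 in the double line, -0.77 and -0.48 in rGRF3, and -0.25 and -1.01 in 35S:GIF1, on arrays A and B.

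**Figure D1:**
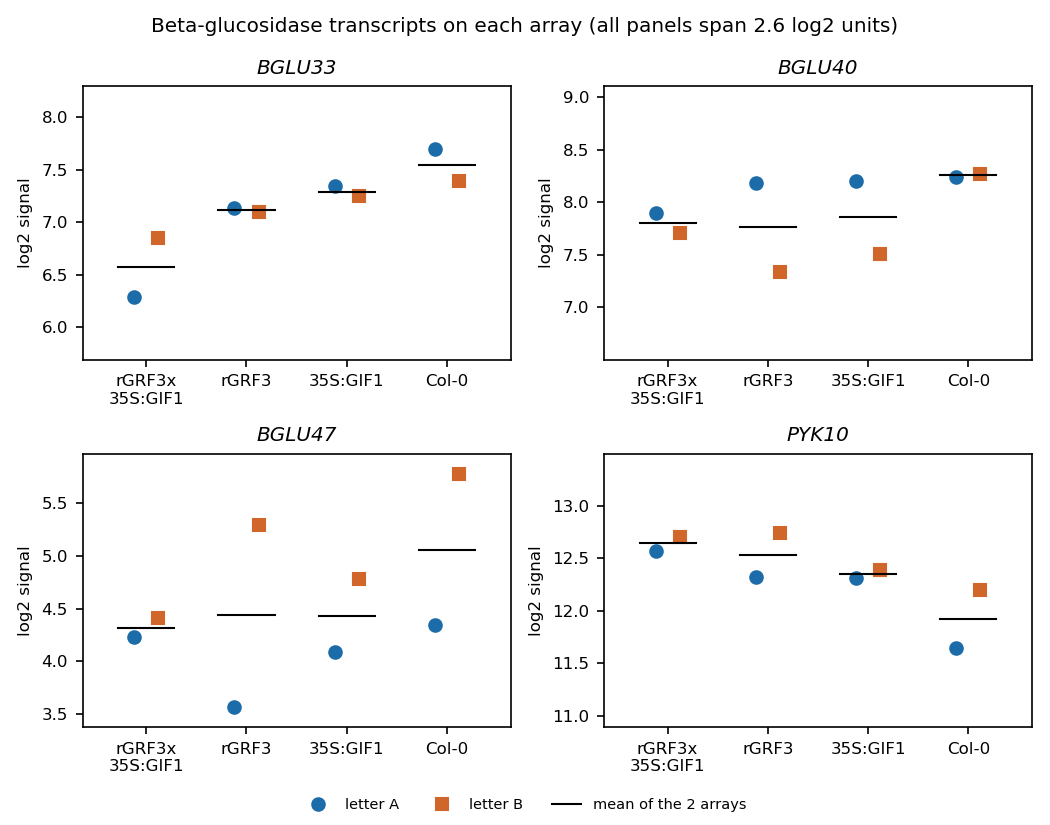
Log2 signal of PYK10, BGLU33, BGLU40 and BGLU47 by genotype, from the double line on the left to Col-0 on the right, with 1 point per array, marked by letter, and the genotype mean. PYK10 was lowest in Col-0 (11.65 and 12.20), BGLU33 was lowest in the double line (6.29 and 6.85), and the arrays of BGLU47 overlapped in all genotypes.

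Over the 4 genes, 2 (BGLU33 and BGLU40) had both arrays below both Col-0 arrays in each of the transgenic lines, and 1 (PYK10) had both above. Among all tested probe sets the share with both arrays below Col-0 was 16.6% in the double line, 14.0% in rGRF3 and 9.77% in 35S:GIF1, and the share above was 15.8%, 11.5% and 9.23%. These shares are for each line alone. The share in all transgenic lines at once was not counted, and every line is set against the same Col-0 arrays. Nothing is therefore read from the count of genes. Between the double line and rGRF3, only BGLU33 of the 4 was separated, on the lower side, where 9.37% of probe sets lay, against 12.1% on the higher side. Between the double line and 35S:GIF1, BGLU33 was lower (14.6% of probe sets) and PYK10 higher (14.1%).

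Genotype and letter took different parts of the variation in each gene. For BGLU33, genotype held 83.0% of the sum of squares over the 8 arrays and the letter 0.132%. For PYK10 the shares were 70.1% and 20.8%, and for BGLU40 they were 34.1% and 38.4%. For BGLU47 genotype held 19.7% and the letter 58.6%. With 4 genotypes and only the letters A and B, genotype takes a larger share than the letter from noise alone. The shares of genotype and letter are therefore not on the same scale, and those of all probe sets were not computed. The rest was 9.06% for PYK10, 16.8% for BGLU33, 21.7% for BGLU47 and 27.5% for BGLU40. For BGLU47 the genotype share was thus below the rest, and for BGLU40 it was not far above it. The rest holds array noise together with any letter difference that varies by genotype. These cannot be told apart, since no letter was repeated within a genotype.

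Over the 8 arrays PYK10 and BGLU33 had a Pearson correlation of -0.73, which was -0.83 with the letter means removed. PYK10 and BGLU40 gave -0.70 and -0.60 on the same scale. BGLU33 and BGLU40 gave 0.36 and 0.48. The other pairs, all with BGLU47, lay between -0.28 and 0.20 and between -0.41 and 0.39 after the letters were removed. The values of a pair come from the same 8 arrays, which share genotypes and letters.

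The genes whose log2 signal ran most like each of the 4 over the 8 arrays were taken as the 3 with the highest Pearson correlation among tested probe sets with 1 gene. For PYK10 these were AT1G17500 (0.944), AT1G69840 (0.943) and ATRX (0.938). For BGLU33 they were AT2G29320 (0.971), AT5G65490 (0.954) and AT4G12060 (0.948). For BGLU40 they were ALATS (0.993), AT2G27590 (0.977) and AT3G15090 (0.956), and for BGLU47 they were AT5G62290 (0.982), AT2G15690 (0.974) and AT2G45870 (0.962). AT2G29320 had 5.84 and 6.33 in the double line, 6.41 and 6.34 in rGRF3, 6.42 and 6.48 in 35S:GIF1, and 6.82 and 6.57 in Col-0. In ALATS the whole range was narrower than in BGLU40, with 11.26 and 11.19 in the double line, 11.35 and 11.10 in rGRF3, 11.33 and 11.12 in 35S:GIF1, and 11.37 and 11.35 in Col-0.

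The partners of PYK10 were measured through 6 of 16 listed ER body genes: NAI1 (AT2G22770), NAI2 (AT3G15950), and the lectin genes JAL22, JAL23, JAL33 and JAL34. None passed the test in a comparison of genotypes. The number at an unadjusted p under 0.05 was 4 of 6 for the double line against Col-0, 3 for rGRF3 and 0 for 35S:GIF1. Over all 14005 tested probe sets these numbers were 902, 479 and 198. All 6 had a higher double-line mean than Col-0 mean, with a median log2 difference of 0.81, and all 6 did so in rGRF3, with a median of 0.88. In 35S:GIF1 5 of 6 did, with a median of 0.23. Over all tested probe sets these medians were -0.01, -0.02 and -0.01, with 48.5%, 45.7% and 47.9% above 0. Both arrays lay above both Col-0 arrays in 5 of the 6 in the double line, in 5 in rGRF3 and in 2 in 35S:GIF1. Over all tested probe sets the shares were 15.8%, 11.5% and 9.23%. All gene lists, this one among them, were chosen with earlier results of these data known, so these counts and medians are a description. The genes of the list also share the same arrays and are not replicates of each other.

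The transcription factor gene NAI1 had a log2 signal of 6.31 and 6.34 in the double line, 5.91 and 6.85 in rGRF3, 5.95 and 5.85 in 35S:GIF1, and 5.66 and 5.39 in Col-0. No array of a transgenic line was as low as either Col-0 array. Its difference from Col-0 was 0.81 in the double line and 0.86 in rGRF3 (standard error 0.31). NAI2 had 10.11 and 10.27 in the double line, 10.02 and 10.35 in rGRF3, 10.05 and 9.85 in 35S:GIF1, and 9.72 and 9.82 in Col-0. Both Col-0 arrays were again the lowest, with differences of 0.42 in the double line and 0.41 in rGRF3 (standard error 0.17).

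Among the lectin genes JAL22 had the highest difference in the double line. It had 10.55 and 11.07 in the double line, 10.02 and 10.96 in rGRF3, 9.54 and 10.05 in 35S:GIF1, and 9.32 and 9.85 in Col-0. The double line was 1.22 above Col-0 (2.33-fold, standard error 0.39, adjusted p = 0.714, and adjusted p = 0.0716 with the letter as a block). The difference was 1.23 on A and 1.22 on B. JAL33 had 10.50 and 10.04 in the double line, 9.92 and 10.38 in rGRF3, 9.72 and 9.35 in 35S:GIF1, and 9.38 and 9.02 in Col-0. It was 1.07 above Col-0 in the double line (adjusted p = 0.627, and adjusted p = 0.158 with the letter as a block) and 0.95 above it in rGRF3. JAL34 had 11.09 and 10.57 in the double line, 10.84 and 10.76 in rGRF3, 10.73 and 9.79 in 35S:GIF1, and 10.22 and 9.80 in Col-0.

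JAL23 differed more between letters than between genotypes. It had 6.45 and 9.42 in the double line, 7.47 and 10.06 in rGRF3, 4.21 and 7.56 in 35S:GIF1, and 6.28 and 8.56 in Col-0. The 35S:GIF1 arrays were the lowest of each letter, so JAL23 was the gene of this list whose 35S:GIF1 mean lay below Col-0, with a difference of -1.54 (standard error 1.62).

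**Figure D2:**
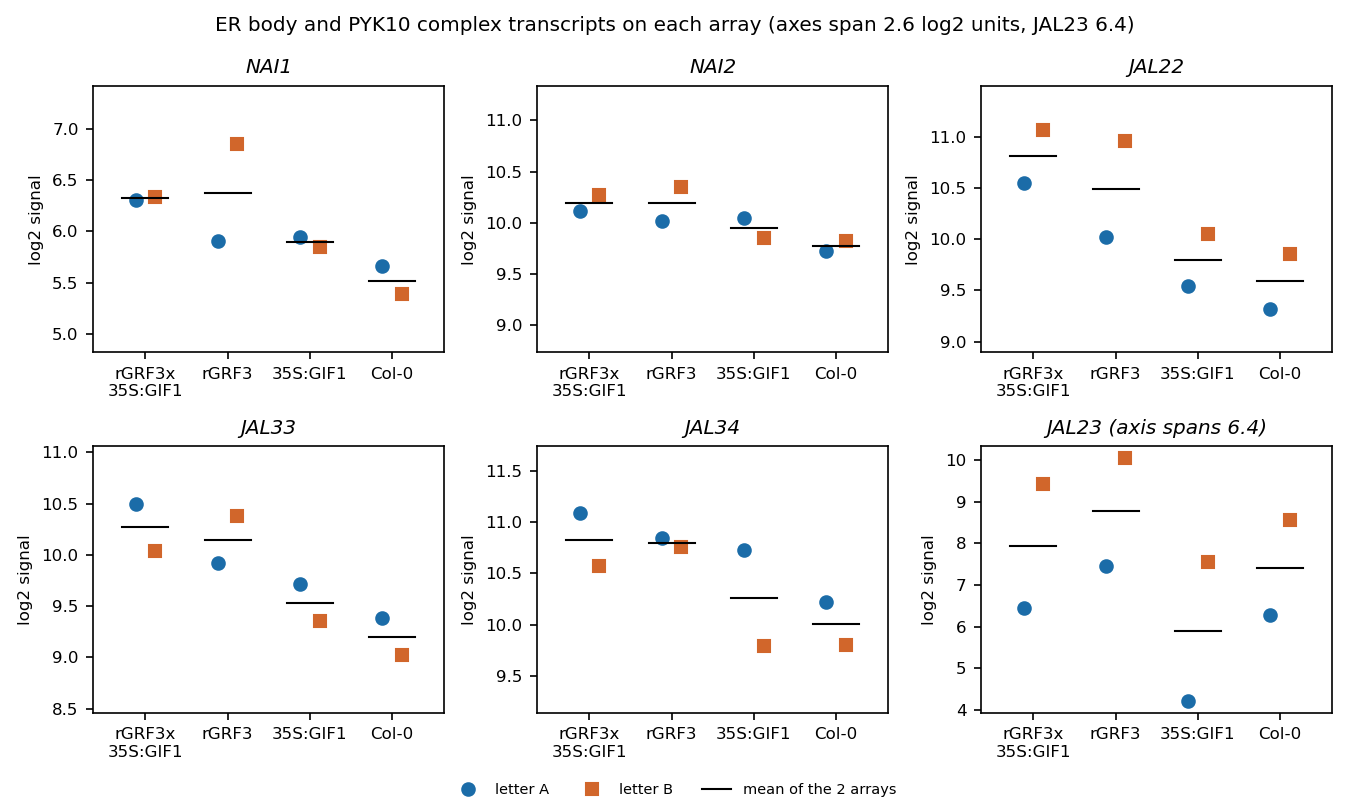
Log2 signal of the 6 measured ER body genes by genotype, double line on the left and Col-0 on the right, 1 point per array marked by letter, with the genotype mean. Col-0 had both of the lowest values for NAI1 (5.66 and 5.39) and NAI2 (9.72 and 9.82). JAL23 is drawn on a wider axis because its B arrays lay 2.80 above its A arrays on average.

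The rGRF3 transgene can be compared in pairs that share no arrays, though both pairs share the letters and the same chosen gene list. Against Col-0, rGRF3 had a median of 0.88 over the 6 ER body genes, and within letters 0.58 on A and 1.23 on B. Against 35S:GIF1, the double line had all 6 above 0 with a median of 0.65, and within letters 0.57 and 0.74. Over all tested probe sets 50.1% were above 0 in this comparison, with a median of 0.00. Both double-line arrays lay above both 35S:GIF1 arrays in 4 of the 6, beside 14.1% of all tested probe sets. The rGRF3 median depends on its own arrays, being 0.41 without rGRF3 array B and 1.25 without rGRF3 array A. The median of the double line against rGRF3 was 0.02.

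Over the 8 arrays the correlation with PYK10 was 0.77 for NAI1, 0.88 for NAI2, 0.89 for JAL22, 0.68 for JAL33, 0.43 for JAL34 and 0.50 for JAL23. With the letter means removed it was 0.79, 0.89, 0.86, 0.88, 0.91 and 0.25 in the same order. JAL34 and JAL33 therefore ran with PYK10 across genotypes once the letters were taken out, and JAL23 did not. In whole apices, more cells of a type and more RNA per cell cannot be told apart.

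The markers of stomatal precursors had their lowest means in the double line and rGRF3, the genotypes in which PYK10 and most ER body genes had their highest. FMA, which controls guard cells and also the myrosin cells that store the related myrosinase enzymes, had 5.09 and 5.09 in the double line, 5.48 and 5.06 in rGRF3, 5.60 and 5.66 in 35S:GIF1, and 5.99 and 5.52 in Col-0. Of 8 listed genes 3 were measured, and all 3 (FMA, MUTE and SPCH) had both double-line arrays below both Col-0 arrays, with differences of -0.67, -0.52 and -0.17, beside 16.6% of all tested probe sets. None passed the test. The median of the 3 was -0.52, and it was -0.25 without Col-0 array A, -0.78 without Col-0 array B and -0.32 without array B of the double line. In rGRF3 FMA and MUTE lay below both Col-0 arrays, with differences of -0.49 and -0.36, beside 14.0% of all tested probe sets. Their summed linear signal, to which SPCH contributes most, was 259 to 304 in the double line, 233 to 352 in rGRF3, 299 to 349 in 35S:GIF1 and 320 to 355 in Col-0. SPCH overlapped with Col-0 in rGRF3, where its difference was 0.14 on A and -0.50 on B. The means of FMA ran in the same order of genotypes as those of BGLU33, and opposite to those of PYK10. How many of all probe sets have this order was not counted. The part of such cells in the values of PYK10, BGLU33 and BGLU40 was not tested.

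Of the other 18 beta-glucosidase genes with their own probe set, 5 passed the filter, and their differences from Col-0 lay between -0.35 and 0.25. BGLU16 had 7.92 and 8.07 in the double line, 7.82 and 8.10 in rGRF3, 7.72 and 7.83 in 35S:GIF1, and 7.78 and 7.72 in Col-0. It was 0.25 above Col-0 in the double line and 0.21 above it in rGRF3 (standard error 0.15), with no overlap. Both arrays also lay above Col-0 in 15.8% of all tested probe sets in the double line and in 11.5% in rGRF3. BGLU15, which encodes an enzyme acting on flavonol glycosides, differed from Col-0 by -0.10 in the double line, 0.06 in rGRF3 and -0.35 in 35S:GIF1 (standard error 0.33). BGLU44, whose product also acts on mannosides, differed from Col-0 by 0.09 in the double line, 0.19 in rGRF3 and 0.04 in 35S:GIF1 (standard error 0.49). BGLU25 differed by -0.19 in 35S:GIF1, and BGLU42, a scopolin hydrolase gene, by 0.03 in the double line. None of the 5 passed in a comparison of genotypes, and none had an unadjusted p under 0.05 there. Their median differences from Col-0 were 0.07 in the double line, 0.06 in rGRF3 and -0.14 in 35S:GIF1.

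**Figure D3:**
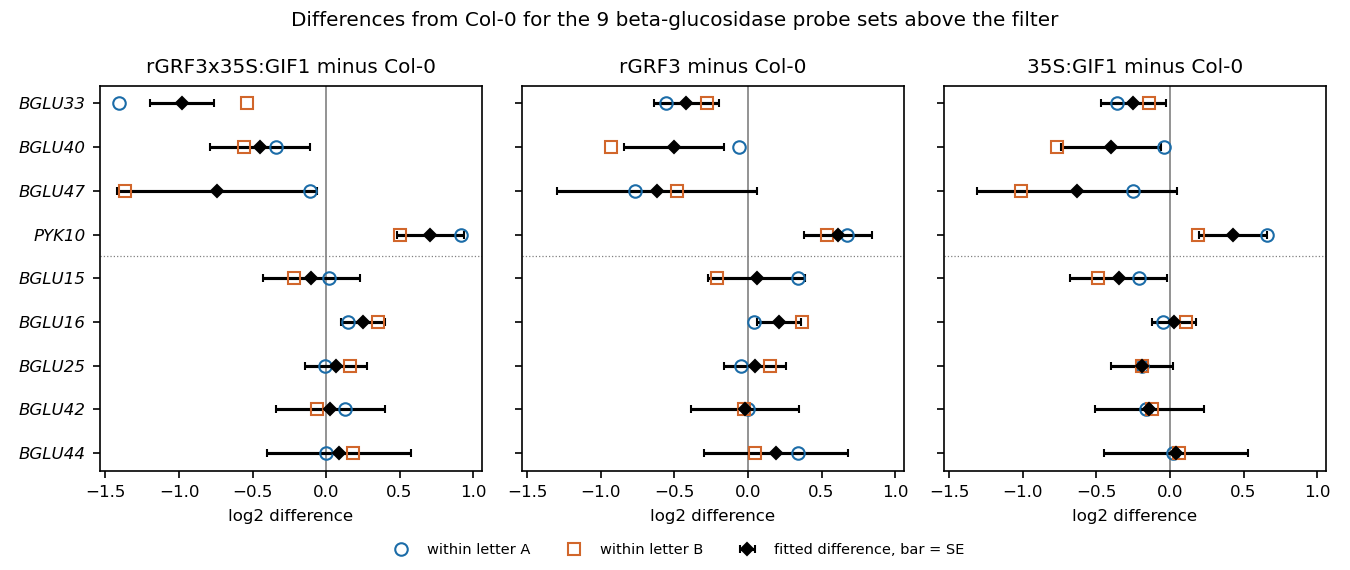
Log2 difference from Col-0 of the 9 beta-glucosidase probe sets above the filter, in the double line, rGRF3 and 35S:GIF1, with the standard error of the fit as bars. BGLU33 lay at -0.98 in the double line and PYK10 at 0.71, while the 5 other genes lay between -0.10 and 0.25.

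The other 13 measured beta-glucosidase genes stayed under the filter, with a highest value of 3.78. Of these, 5 lay on the floor on all 8 arrays and 9 stayed under 2.5 throughout. BGLU45 and BGLU46, the relatives of BGLU47 that act on lignin precursors, had 2.22 to 3.22 and 2.12 to 2.62. BGLU21 and BGLU22, the closest relatives of PYK10, share 1 probe set, which lay at 2.12 on all arrays. BGLU18, PEN2 and the myrosinase genes TGG1 and TGG2 had no probe set of their own in this annotation and were not analysed here.

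Glucosinolates are substrates of PYK10-type enzymes, and 2 of 25 listed genes of their synthesis and breakdown were measured. UGT74B1, which adds the glucose of glucosinolates, and BCAT4, the first enzyme of methionine side-chain extension, did not pass in a comparison of genotypes, and neither had an unadjusted p under 0.05 there. BCAT4 had 10.87 and 12.05 in the double line, 10.04 and 12.64 in rGRF3, 8.71 and 12.15 in 35S:GIF1, and 9.65 and 11.76 in Col-0, so that the letters were further apart than the genotypes.

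For the lignin precursors on which the relatives of BGLU47 act, 3 of 21 listed genes were above the filter. UGT72E1, which glucosylates lignin precursor aldehydes, had 6.51 and 7.21 in the double line, 5.78 and 6.80 in rGRF3, 5.83 and 6.24 in 35S:GIF1, and 5.53 and 5.72 in Col-0. Both Col-0 arrays were the lowest, and how many of all probe sets share this was not counted. The double line was 1.24 above Col-0 (2.36-fold, standard error 0.39, adjusted p = 0.714, and adjusted p = 0.113 with the letter as a block). HCT, an enzyme of the lignin pathway, differed from Col-0 by -0.28 in the double line and by -0.23 in rGRF3. UGT72B1, which glucosylates lignin precursors, differed from Col-0 by -0.27 in 35S:GIF1.

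The letters B and A were compared over 4 arrays each, with genotype in the fit, since the labels do not say what they mark. In this comparison 24.6% of probe sets passed, 11.8% higher on the B arrays and 12.7% lower. The 4 genes include 1 of these, BGLU47, from which nothing is read beside the 24.6% of all probe sets. Its log2 signal was 5.07 ± 0.60 on the B arrays and 4.06 ± 0.34 on the A arrays (SD, n = 4 each). Every B array (4.41 to 5.78) lay above every A array (3.57 to 4.34), as in 13.6% of probe sets. The difference was 1.01 (2.01-fold, standard error 0.26). It was 0.18 in the double line, 1.73 in rGRF3, 0.68 in 35S:GIF1 and 1.44 in Col-0. The value of 3.57 lay under the filter, so this size is approximate. The BGLU47 call (adjusted p = 0.0385 in limma) ended without the filter (adjusted p = 0.206) and in an ordinary linear model (adjusted p = 0.182). It held with quantile normalization (adjusted p = 0.0464), median centring (adjusted p = 0.0378), and a trend with robust estimation (adjusted p = 0.027). With 1 array left out, the BGLU47 difference between letters ran between 0.77 and 1.28. The call ended without either array of Col-0, rGRF3 or 35S:GIF1, and held in 4 of 9 alternatives in all.

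PYK10 was 0.30 higher on the B arrays (standard error 0.11), and higher in all 4 genotypes, by 0.13 in the double line, 0.42 in rGRF3, 0.09 in 35S:GIF1 and 0.55 in Col-0. This direction in all genotypes was shared by 22.3% of probe sets. The B minus A difference of BGLU40 was -0.42 (standard error 0.16), with -0.19 in the double line, -0.83 in rGRF3, -0.70 in 35S:GIF1 and 0.03 in Col-0. BGLU33 differed by 0.03 on average, with 0.56 in the double line, -0.04 in rGRF3, -0.09 in 35S:GIF1 and -0.31 in Col-0.

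Among the 5 other beta-glucosidase genes above the filter, 3 were called higher and 1 lower on the B arrays. Of all tested probe sets, 11.8% were called higher and 12.7% lower, and nothing is read from the count. BGLU16 was 0.12 higher and was not called. BGLU44 was 11.96 ± 0.08 on the B arrays and 11.14 ± 0.17 on the A arrays (SD, n = 4 each), a log2 difference of 0.82 (standard error 0.10, adjusted p = 0.00515 in limma). The call held in 9 of 10 alternatives, with adjusted p = 0.058 in an ordinary linear model. Leaving out array A or array B of a genotype gives the same comparison of letters and is counted once. BGLU42 was 8.31 ± 0.05 on the B arrays and 7.70 ± 0.12 on the A arrays, a log2 difference of 0.61 (adjusted p = 0.00631 in limma), held in all 10. BGLU25 differed by 0.29 (adjusted p = 0.0496 in limma), and leaving out any array ended the call, with adjusted p-values of 0.0677 to 0.145. BGLU15 was 6.13 ± 0.20 on the B arrays and 6.63 ± 0.23 on the A arrays, a difference of -0.50 (adjusted p = 0.0241 in limma). It held in 5 of 10 alternatives, over which the adjusted p ran between 0.0173 and 0.107, and ended without any one array of the double line, rGRF3 or 35S:GIF1.

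**Figure D4:**
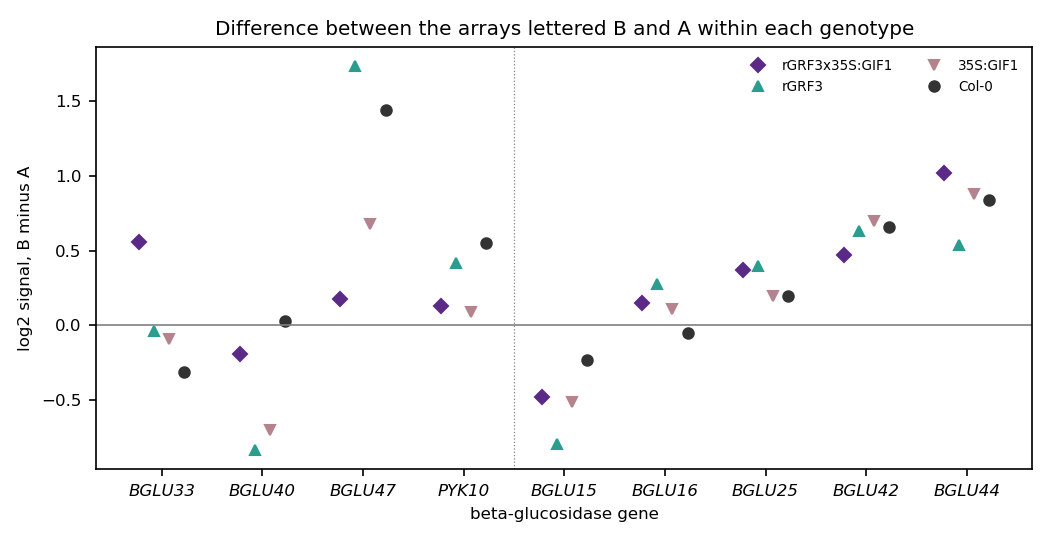
Log2 signal on array B minus array A within each genotype for the 9 beta-glucosidase genes above the filter, 1 point per genotype. BGLU42 and BGLU44 were higher on array B in every genotype, by 0.47 to 0.70 and by 0.54 to 1.02, while the points of BGLU33 lay on both sides of 0.

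Related genes also differed between the letters. JAL23 was 2.80 higher on the B arrays (6.95-fold, adjusted p = 0.000761 in limma), and JAL22 was 0.63 higher (adjusted p = 0.0112 in limma). The JAL22 call held in 7 of 10 alternatives and ended without either 35S:GIF1 array (adjusted p = 0.0513), without the filter (adjusted p = 0.0662) and in an ordinary linear model (adjusted p = 0.077). The glucosinolate genes UGT74B1 and BCAT4 rose by 1.65 and 2.33 on the B arrays (adjusted p = 0.00784 and adjusted p = 0.00825 in limma). UGT72E1 was 0.58 higher (adjusted p = 0.036 in limma). The calls of UGT74B1 and BCAT4 each held in 8 of 10 alternatives and that of UGT72E1 in 5, ending without any one array of a transgenic line. The trichome marker TRY fell by 0.73, to 5.26 ± 0.19 on the B arrays, against 5.99 ± 0.17 on the A arrays (SD, n = 4 each), and its part in the other differences was not tested. That call held in 6 of 10 alternatives and ended without either array of the double line or of 35S:GIF1.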

How the data were processed

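The authors deposited log2 values. Per the submitters' processing notes they used limma and GCRMA, a method for background correction, normalisation and probe summary of Affymetrix arrays. No version or genome build was given in the sources used here. Array medians were 5.90 to 5.97. More decimals stand in the 2 Col-0 columns than in the 6 others, which have 3. If they were processed apart, differences from Col-0 would include that.

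Of 22810 probe sets, 64 Affymetrix controls were left out, and 14005 that reached a log2 value of 4 on 2 or more arrays were tested. Genes were named from the platform annotation where it lists 1 gene (13513 probe sets), of which 13436 matched RefSeq's table for assembly TAIR10.1. Genotype means were fitted with limma 3.58.1 in R 4.3.3 (lmFit and eBayes, with neither a trend nor robust estimation), with all 8 arrays sharing 1 estimate of the spread. P-values were adjusted by Benjamini-Hochberg within each comparison, and a call is an adjusted p under 0.05. The letter comparison had genotype as a term. The code of the fit was tried on simulated data with equal spread in all probe sets, no letter difference and changes in the double line only. These arrays differ from that setting, so the simulation does not show how the fit performs on them. Plots used matplotlib 3.10.9, and tables used pandas 2.3.3 and numpy 2.4.6 in Python 3.11.15.

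The letters pair the arrays: the A minus B deviations of the genotypes correlated at 0.59 to 0.75 in all 6 pairs of genotypes. This comes from the data and not the labels. The fit without the letter takes the letter difference as spread, so a gene that did not pass is not shown to be unchanged.

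The 4 genes and all gene lists were chosen with earlier results of these data known. From each list, and in each comparison with Col-0 or between letters, genes that passed were named, otherwise the 2 with the largest difference in that comparison. Of the ER body list all 6 measured genes are given. Alternatives were other scalings, filters and variance models, the letter as a block, the compared groups alone, values within a letter and each array left out. The number of arrays limits the precision.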

Additional observations from a re-analysis of the deposited data

Results flagged for a closer look

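In 2 other beta-glucosidase genes an effect had opposite signs in both letters with and without the other transgene. For BGLU25 the log2 effect of 35S:GIF1 with rGRF3 present was 0.036 on array A and 0.008 on array B, and without it -0.19 and -0.19. The interaction was 0.21 (adjusted p = 1 in limma). For BGLU42 the effect of rGRF3 with 35S:GIF1 present was 0.29 on array A and 0.061 on array B, and without it -0.0034 and -0.035. The interaction was 0.19 (adjusted p = 1 in limma). Several of these values are close to 0. Such signs were looked for in every listed gene above the filter, and how often they occur over all probe sets was not counted. No other test of these differences was made.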

How the results depend on the processing

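With the letter as a replicate block, 5 probe sets passed for the double line against Col-0, compared with 1 without the block, and 0 of the 4 genes were among them. Without the filter on low values the counts were 0 for the double line, 1 for rGRF3 and 0 for 35S:GIF1 against Col-0, 3 for the double line against rGRF3, 2 for it against 35S:GIF1, and 1069 between letters, compared with 3439. With median centring the count for the double line against Col-0 was 0. With the compared groups alone it was 0 for the double line against Col-0, 0 for 35S:GIF1 against Col-0 and 0 for the double line against rGRF3. In an ordinary linear model it was 0 for 35S:GIF1 against Col-0, 1 for the double line against 35S:GIF1 and 419 between letters. Leaving out 1 array at a time gave 0 to 1 for 35S:GIF1 against Col-0, 0 in each other comparison of genotypes and the interaction, and 1063 to 2634 between letters. A genotype left with 1 array is assumed to vary like the others. Fewer arrays are fitted there, and the cause was not tested otherwise.

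Quantile normalization and median centring moved each of the 4 genes' values by less than 1 SD, and the sign changed once, for BGLU33 between letters (-0.01, against 0.03). With 1 array left out, the differences from Col-0 kept their sign for PYK10, BGLU33 and BGLU40. For BGLU47 they did not: without Col-0 array B they were 0.10 in rGRF3 and 0.09 in 35S:GIF1, and without rGRF3 array A 0.24 in rGRF3.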
